A study of Mus musculus with 15 samples.

Results

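Expression of 6 mouse genes of zinc storage and transport was followed in sorted liver cells: the metallothionein genes Mt1 and Mt2, the exporter genes Slc30a1 and Slc30a10, and the importer genes Slc39a4 and Slc39a14. The genes were taken by symbol from a table of 24493 genes in 15 RNA-seq libraries, and all 6 were among the 13905 genes that reached 1 TPM in at least 3 libraries. There were 5 groups of 3 libraries: reprogrammed cells, biliary epithelial cells and hepatocytes of mice fed DDC, and biliary epithelial cells and hepatocytes of untreated mice. All mice, untreated ones included, had received AAV-TBG-Cre when 4 weeks old. In this virus the TBG promoter, active in hepatocytes, controls the Cre recombinase, so that it labels hepatocytes. The DDC mice ate chow with DDC, a compound that injures bile ducts and hepatocytes, from 5 weeks of age and for 4 weeks. The labels give neither the sort markers nor whether the 3 libraries of a group came from separate mice, so the p-values reflect the spread among these libraries, which may be technical. Strain, sex and the age of the untreated mice at harvest are not in the labels.

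Metallothioneins are small cysteine-rich proteins that bind zinc, copper and cadmium. In mouse liver their genes are switched on by zinc through the metal sensor MTF1 (gene Mtf1), which binds short metal response elements, and also by glucocorticoids and by interleukin-6. ZnT1 (Slc30a1) moves zinc out of the cell across the plasma membrane and is itself an MTF1 target. ZnT10 (Slc30a10) exports manganese, and its loss in people causes manganese overload with liver disease. ZIP4 (Slc39a4) is best known as the zinc importer of the intestine, and ZIP14 (Slc39a14) takes up zinc, manganese and iron in hepatocytes.

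The promoter windows of the metallothionein genes and of both exporter genes are shown because Mt1, Mt2 and Slc30a1 moved together among DDC libraries and Slc30a10 fell under DDC. They come from the RefSeq table of GRCm38.p6, the assembly also known as mm10, and are 300 bases long, with the listed start near the right end. The table matched 4 of the 6 genes. Capitals mark the letters TGCACNC or TGCGCNC, searched on both strands, which are the core of the metal response element.
Mt1, chr8:94178839-94179138, + strand: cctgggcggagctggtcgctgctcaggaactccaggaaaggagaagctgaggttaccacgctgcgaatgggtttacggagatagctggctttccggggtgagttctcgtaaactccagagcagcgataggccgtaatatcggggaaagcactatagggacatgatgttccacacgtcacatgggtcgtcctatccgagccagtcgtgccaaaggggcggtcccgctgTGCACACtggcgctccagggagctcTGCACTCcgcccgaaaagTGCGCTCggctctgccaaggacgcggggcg
Mt2, chr8:94172368-94172667, + strand: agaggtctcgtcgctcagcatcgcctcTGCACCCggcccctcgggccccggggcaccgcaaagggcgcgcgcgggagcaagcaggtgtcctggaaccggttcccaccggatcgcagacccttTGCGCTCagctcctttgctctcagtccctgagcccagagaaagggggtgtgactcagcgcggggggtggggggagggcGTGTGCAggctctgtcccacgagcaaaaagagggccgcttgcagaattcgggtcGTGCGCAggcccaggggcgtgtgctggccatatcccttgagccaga
Slc30a1, chr1:191906531-191906830, + strand: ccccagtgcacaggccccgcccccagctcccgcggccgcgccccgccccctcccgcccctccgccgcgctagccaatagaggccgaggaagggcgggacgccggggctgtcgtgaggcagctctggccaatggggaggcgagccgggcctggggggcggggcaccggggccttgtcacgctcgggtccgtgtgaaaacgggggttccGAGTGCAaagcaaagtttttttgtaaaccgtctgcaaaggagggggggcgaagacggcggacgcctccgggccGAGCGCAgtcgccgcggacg
Slc30a10, chr1:185454598-185454897, + strand: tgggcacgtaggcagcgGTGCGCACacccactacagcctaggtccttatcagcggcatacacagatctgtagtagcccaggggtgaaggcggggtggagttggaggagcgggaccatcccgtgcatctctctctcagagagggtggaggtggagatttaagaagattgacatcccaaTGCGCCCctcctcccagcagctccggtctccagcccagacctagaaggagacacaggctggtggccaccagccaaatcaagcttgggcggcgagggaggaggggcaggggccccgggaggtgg

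The Mt1 window held 3 matches, the Mt2 window 4, the Slc30a1 window 2 and the Slc30a10 window 3, of which 2 overlap on opposite strands. Among 32851 promoter windows of the same length, 25.7% held at least 1 match, 7.11% at least 2, 1.97% at least 3 and 0.518% at least 4. The Mtf1 window held 0. GENCODE also has transcripts of Mt1 that start 129 and 159 bases, and 1 of Mt2 that starts 196 bases, after the start of the gene, and no window was searched for these. A match is a run of letters and not a measured site of binding. In the GENCODE M21 annotation of GRCm38, Mt2 spans bases 94172664 to 94173568 and Mt1 bases 94179082 to 94180327 of chromosome 8, both on the plus strand and 5513 bases apart. Slc30a1 (bases 191906767 to 191913247) and Slc30a10 (bases 185454848 to 185468762) lie on the plus strand of chromosome 1. Slc39a14 lies on the minus strand of chromosome 14 (bases 70303469 to 70351425) and Slc39a4 on that of chromosome 15 (bases 76612383 to 76617384). The coding sequences of Mt1 and Mt2 are 186 bases each and 79.6% identical, their transcripts are 62.7% identical, and the longest run of bases that the transcripts share is 20. The sources used here do not say how the quantification divided reads between the 2 genes.

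The deposited values are TPM, a level per transcript length, which keeps no read total, so the depth behind each value is unknown. Hepatocyte libraries spent more of their TPM on a few genes, and between 10231 and 13636 genes reached 1 TPM in a library. Levels are therefore given as scaled TPM, which is the deposited TPM divided by 1 factor per library (0.558 to 1.64). Using TPM as deposited moved the median gene (log2 scale) by 1.11 for untreated biliary cells against hepatocytes, by 1.06 for DDC biliary cells against hepatocytes and by 0.71 for reprogrammed cells against DDC hepatocytes, against 0.12, 0.15 and 0.06 with scaled values. Summed over 10 hepatocyte markers, scaled TPM was 25170 to 80960 in reprogrammed cells, 14030 to 32080 in DDC biliary cells, 79550 to 161500 in DDC hepatocytes, 31450 to 40950 in biliary cells of untreated mice and 157700 to 180200 in their hepatocytes. The 9 biliary markers summed to 4471 to 10730 in reprogrammed cells, 7977 to 12980 in DDC biliary cells, 282.8 to 599.7 in DDC hepatocytes, 10580 to 12270 in untreated biliary cells and, at the low end, 18.3 to 24.9 in untreated hepatocytes, where Krt7, Cftr and Cldn7 were at 0. Each labelled cell type thus carried its defining markers, and RNA of hepatocyte markers was also present in the biliary libraries. In such bulk samples, fewer cells of a type and less RNA per cell cannot be told apart.

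**Figure D1:**
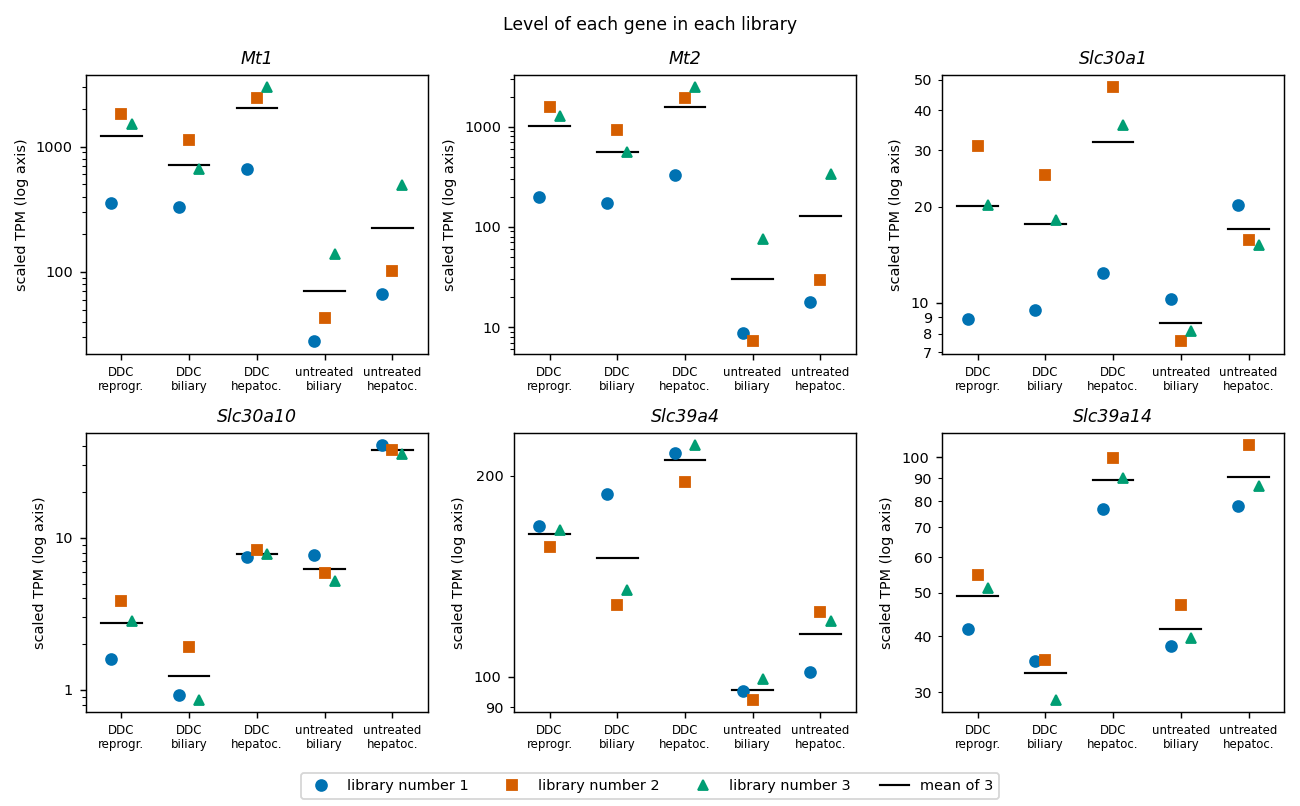
Scaled TPM on a log axis for the 6 genes in the 15 libraries, by group, with the mean of 3 as a bar and the number in the library's title as colour and shape. Mt1 and Mt2 are higher in DDC groups, number 1 is the lowest DDC library in each cell type for Mt1, Mt2 and Slc30a1, and Slc30a10 is lowest in DDC biliary cells.

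Mt1 and Mt2 rose under DDC in hepatocytes and in biliary cells. Mt1 stood at 663.9, 2450 and 2986 scaled TPM in DDC hepatocytes 1, 2 and 3, against 66.4, 101.3 and 499.0 in untreated hepatocytes. All 3 DDC libraries were above all untreated ones, with DDC library 1 and untreated library 3 closest to each other. Mt1 averaged 2033 ± 1216 scaled TPM in DDC hepatocytes and 222.2 ± 240.3 in untreated hepatocytes (SD, n = 3 each), a log2 difference of 3.49 (SE 0.90, adjusted p = 0.012 by limma). Mt2 stood at 327.6, 1939 and 2481 scaled TPM in DDC hepatocytes, against 17.97, 29.2 and 337.0 in untreated hepatocytes. Here DDC library 1 lay just below untreated library 3, so the groups overlapped on this scale, while on TPM as deposited they did not (254.0 to 1608 TPM in DDC and 10.03 to 197.6 TPM in untreated hepatocytes). The log2 difference of Mt2 was 4.33 (SE 1.26, adjusted p = 0.022 by limma).

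Biliary cells gave values of similar size. Mt1 stood at 327.2, 1141 and 657.8 scaled TPM in DDC biliary cells, against 27.9, 42.6 and 139.0 in untreated biliary cells, with no overlap (log2 difference 3.48, SE 0.90, adjusted p = 0.0128 by limma). Mt2 stood at 174.7, 936.1 and 553.5 scaled TPM in DDC biliary cells, against 8.65, 7.19 and 75.03 in untreated biliary cells, again with no overlap (log2 difference 4.63, SE 1.26, adjusted p = 0.0167 by limma). A gene was called where its adjusted p was under 0.05 and its log2 difference was 1 or more in either direction. In each of the comparisons of DDC with untreated cells, 3 of the 6 genes were called (Mt1 and Mt2 higher, Slc30a10 lower), where 11% of all genes tested were called in hepatocytes (6.59% higher and 4.42% lower) and 10.4% in biliary cells (5.68% higher and 4.74% lower). The response in hepatocytes minus that in biliary cells was 0.00 for Mt1 (SE 1.27, adjusted p = 0.999 by limma) and -0.30 for Mt2 (SE 1.78, adjusted p = 0.954), with SEs that leave room for sizeable differences of either sign. That test called 0 of the 6 genes by limma, with 0 of 6 at an unadjusted p under 0.05, and 8.4% of all genes (4.94% more positive and 3.46% more negative in hepatocytes). Markers of other cells moved with DDC as well. The 6 neutrophil markers summed to 9.86 to 15.2 scaled TPM in DDC hepatocytes, against 1.28 to 1.95 in untreated hepatocytes, and to 22.0 to 29.6 in DDC biliary cells, against 0.645 to 1.70 in untreated biliary cells. Of these markers Mpo was at 0 in DDC hepatocytes and in both untreated groups, Retnlg in both untreated groups and S100a8 in untreated hepatocytes. The 4 erythroid markers summed to 15.6 to 26.0 scaled TPM in DDC hepatocytes, against 113.7 to 137.0 in untreated hepatocytes, and to 13.2 to 17.9 in DDC biliary cells, against 19.0 to 33.9 in untreated biliary cells, with Hbb-bs at 0 in each library. The 6 stellate and fibroblast markers summed to 3.47 to 9.52 scaled TPM in DDC hepatocytes, against 0.18 to 2.45 in untreated hepatocytes, and to 10.35 to 71.7 in DDC biliary cells, against 10.36 to 13.7 in untreated biliary cells, with an overlap in biliary cells alone. The summed endothelial, macrophage and lymphocyte markers overlapped between DDC and untreated cells in both cell types. The part of such cells in the metallothionein levels was not tested.

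These metallothionein calls rested on few libraries. The limma fit also treated libraries of different cell types as independent, though Mt1 and Mt2 varied with the number in the library's title. The information behind these p-values may thus be less than the fit assumes. In hepatocytes, the adjusted p of limma was 0.057 for Mt1 and 0.0947 for Mt2 without untreated library 1, and that of Mt2 was 0.0779 without untreated library 2, 0.0667 without DDC library 2 and 0.0768 without DDC library 3. In biliary cells it was 0.06 for Mt1 and 0.0678 for Mt2 without untreated library 1, 0.053 and 0.0644 without DDC library 2, and for Mt2 alone 0.0681 without untreated library 2 and 0.056 without DDC library 3.

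Among all deposited genes ordered by mean level, Mt1 ranked 72nd in reprogrammed cells, 107th in DDC biliary cells and 73rd in DDC hepatocytes, against 1553rd in biliary cells and 905th in hepatocytes of untreated mice. Mt2 ranked 104th, 150th and 107th in those DDC groups, against 3607th in biliary cells and 1371st in hepatocytes of untreated mice. The pair made up 0.0756% to 0.359% of all TPM in a DDC library and 0.00471% to 0.049% in an untreated library.

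The reprogrammed cells had mean metallothionein levels between those of the other DDC groups on scaled TPM, and the highest means on TPM as deposited. Mt1 stood at 353.5, 1827 and 1506 scaled TPM and Mt2 at 198.3, 1564 and 1290 in reprogrammed libraries 1, 2 and 3. Against untreated hepatocytes, library 1 fell within the untreated range and the others above it on scaled TPM. As deposited, all 3 lay above it, at 490.2 to 1937 against 37.1 to 292.5 TPM for Mt1 and 275.0 to 1657 against 10.03 to 197.6 TPM for Mt2, with log2 differences of 3.77 and 4.71. The log2 difference from untreated hepatocytes was 2.72 for Mt1 (SE 0.90, adjusted p = 0.0186 by limma) and 3.67 for Mt2 (SE 1.26, adjusted p = 0.0219), and 3 of the 6 genes were called in this comparison (with Slc30a10 lower), beside 33.1% of all genes (20.6% higher and 12.5% lower). Both metallothionein calls were lost, with adjusted p of limma between 0.0617 and 0.0947, when untreated library 1 or 2 or reprogrammed library 2 or 3 was left out. Mt1 and Mt2 were called neither against DDC hepatocytes (log2 differences -0.77 and -0.66, SE 0.90 and 1.26) nor against DDC biliary cells (0.66 and 0.71, same SE). Within numbers 1, 2 and 3, reprogrammed cells had 0.532, 0.746 and 0.505 times the scaled Mt1 of DDC hepatocytes and 0.606, 0.807 and 0.520 times the Mt2, each below 1. With the replicate number as a block within treatment, Mt1 passed the adjusted p (SE 0.24, adjusted p = 0.0198 by limma) but not the bound of 1, and Mt2 did not (SE 0.27, adjusted p = 0.067). As deposited the ratios of Mt1 were 0.952, 1.15 and 0.963, and the log2 differences turned to 0.02 and 0.14. Against DDC biliary cells the scaled ratios were 1.08, 1.60 and 2.29 for Mt1 and 1.135, 1.67 and 2.33 for Mt2, each above 1. With the same block neither gene passed there (adjusted p = 0.0691 and 0.0863 by limma). As deposited these ratios of Mt1 were 0.994, 1.21 and 1.72.

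The spread of Mt1 and Mt2 within a group went with the number in the library's title. In DDC mice, number 1 was the lowest library in each of the 3 cell types: numbers 2 and 3 had 5.17 and 4.26 times as much Mt1 as number 1 in reprogrammed cells, 3.49 and 2.01 times in biliary cells and 3.69 and 4.50 times in hepatocytes. In untreated mice number 3 was the highest, with 4.99 and 3.27 times the Mt1 of numbers 1 and 2 in biliary cells and 7.51 and 4.92 times in hepatocytes. As deposited, the sum of Mt1 and Mt2 in number 1 of the DDC libraries was 765.2 TPM in reprogrammed cells, 756.3 TPM in biliary cells and 768.7 TPM in hepatocytes. In the same order it was 3594, 2917 and 3031 TPM in number 2 and 3458, 1990 and 3543 TPM in number 3. The sums were thus close in number 1 on TPM as deposited. In scaled TPM they lay farther apart, at 551.8, 501.9 and 991.5 in number 1 and 3391, 2077 and 4389 in number 2, with hepatocytes the highest. The labels do not say that a number marks a mouse.

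Of the variation of Mt1 among the 9 DDC libraries (log2 scale, sum of squares), 66.5% went with the number and 28.5% with the cell type. For Mt2 the shares were 79.3% and 17.3%, and for the exporter gene Slc30a1 80.02% and 17.7%. The median gene showed the opposite split, 14.9% for the number and 67.7% for the cell type, as did Slc30a10 (6.59% and 90.1%), Slc39a4 (17.1% and 67.2%) and Slc39a14 (3.31% and 93.4%). Among the 6 untreated libraries Mt1 and Mt2 again went with the number (69.6% and 77.8%), while Slc30a1 did not (12.4%, with 87.3% for the cell type). These shares are a description, with 3 numbers in each treatment.

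**Figure D2:**
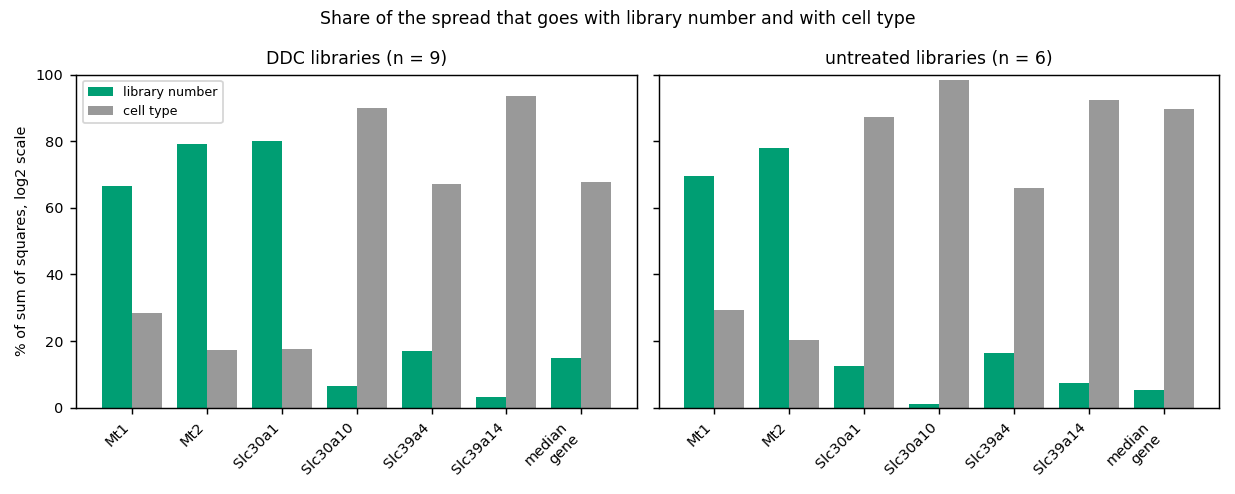
Bars give the share of the sum of squares of log2 values that goes with library number and with cell type, for 9 DDC libraries (left) and 6 untreated libraries (right), for the 6 genes and the median of all genes tested. Mt1 and Mt2 go mainly with number in both panels (66.5% to 79.3%), Slc30a1 only in the DDC panel (80.02%), and the median gene mainly with cell type.

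Hepatocyte RNA varied with the same numbers, by less and not in each cell type. The summed hepatocyte markers in numbers 2 and 3 were 3.22 and 1.84 times number 1 in reprogrammed cells, 2.07 and 0.903 times in DDC biliary cells and 1.88 and 2.03 times in DDC hepatocytes. In untreated libraries number 3 had 0.814 and 1.06 times the markers of numbers 1 and 2 in biliary cells and 1.03 and 1.14 times in hepatocytes, where Mt1 differed at least 3.27-fold. Their part in the spread of the metallothioneins was not tested. Leaving out both untreated libraries of number 3, or the 3 DDC libraries of number 1, choices made after seeing the data, kept the calls of Mt1 and Mt2 against untreated cells.

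Mt1 exceeded Mt2 in each of the 15 libraries, by less where both were high. The ratio of Mt1 to Mt2, which no scaling changes, was 1.78, 1.17 and 1.17 in reprogrammed cells 1, 2 and 3, 1.87, 1.22 and 1.19 in DDC biliary cells and 2.03, 1.26 and 1.204 in DDC hepatocytes. In untreated mice it was 3.22, 5.92 and 1.85 in biliary cells and 3.70, 3.47 and 1.48 in hepatocytes. Untreated library 3, the one with the most metallothionein RNA, fell within the DDC range in both cell types. The mean log2 ratio was lower under DDC by 1.05 over hepatocytes and biliary cells (log2 difference -1.05, two-sided exact permutation within cell types, p = 0.02, smallest possible 0.005). The summed level was higher by 3.83 on the log2 scale (p = 0.005 by the same exact permutation test, the smallest it can give). That test treats hepatocyte and biliary libraries as independent, which their shared numbers make doubtful; within 1 cell type the exact p was 0.2 for the ratio and 0.1 for the sum, the smallest possible.

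**Figure D3:**
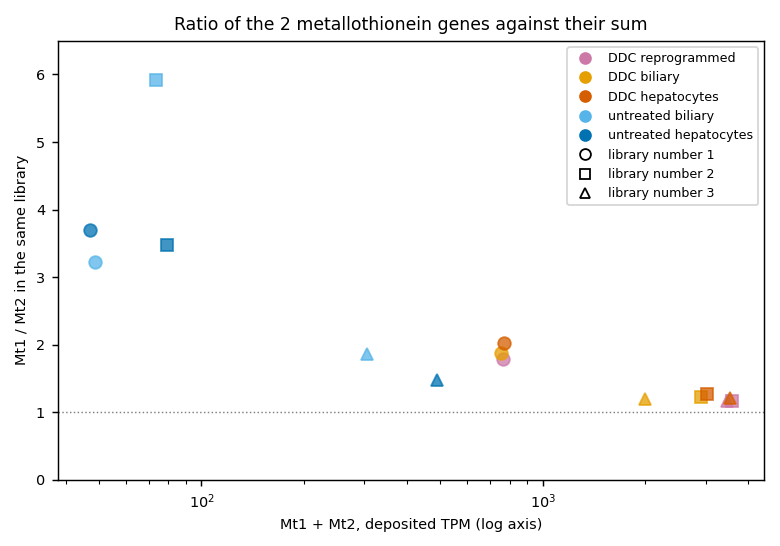
The ratio of Mt1 to Mt2 in each of 15 libraries against the sum of both in deposited TPM (log axis), by group (colour) and library number (shape), with a dotted line at a ratio of 1. Untreated libraries 1 and 2, with sums of 47.1 to 79.4 TPM, have ratios of 3.22 to 5.92, and DDC libraries 2 and 3, with sums of 1990 to 3594 TPM, have ratios of 1.17 to 1.26.

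Slc30a1, the zinc exporter gene that MTF1 controls, followed the metallothioneins among DDC libraries but was not called in any of the 8 comparisons on scaled TPM. It stood at 12.4, 47.3 and 36.1 scaled TPM in DDC hepatocytes 1, 2 and 3, against 20.2, 15.7 and 15.2 in untreated hepatocytes. DDC library 1 was below all 3 untreated ones and DDC libraries 2 and 3 were above them (log2 difference 0.69, SE 0.49, adjusted p = 0.333 by limma). It stood at 9.47, 25.1 and 18.2 scaled TPM in DDC biliary cells, against 10.3, 7.57 and 8.15 in untreated biliary cells, with the same 1 library inside the untreated range (0.86, SE 0.49, adjusted p = 0.221). Without the 3 DDC libraries of number 1, a choice made after seeing the data, both differences were called, at 1.24 in hepatocytes (adjusted p = 0.00262 by limma) and 1.22 in biliary cells (adjusted p = 0.00279). Over all alternatives the adjusted p of limma ran between 0.00262 and 0.72 in hepatocytes and between 0.00279 and 0.506 in biliary cells. Reprogrammed cells had 8.89, 31.0 and 20.3 scaled TPM, with library 1 again the lowest (0.08 against untreated hepatocytes, adjusted p = 0.899). On TPM as deposited that difference was called (1.07, adjusted p = 0.0357 by limma), with 12.3 to 32.9 TPM in reprogrammed cells against 8.90 to 11.3 in untreated hepatocytes. Leaving out DDC hepatocyte library 1 made Slc30a1 a call against DDC hepatocytes for reprogrammed cells (-1.17, adjusted p = 0.0444) and for DDC biliary cells (-1.29, adjusted p = 0.0222). In untreated mice each biliary library was below each hepatocyte library on scaled TPM (-0.90, SE 0.49, adjusted p = 0.124). With the replicate number as a block within treatment, the adjusted p of this difference by limma was 0.000105. For reprogrammed and biliary cells against DDC hepatocytes (-0.61 and -0.73) it was then 0.00214 and 0.000437. None reached the bound of 1. On TPM as deposited these differences turned to 0.27, 0.14 and 0.32, none called.

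Slc30a10, the manganese exporter gene, fell under DDC in both cell types. It stood at 7.49, 8.29 and 7.87 scaled TPM in DDC hepatocytes, against 40.7, 38.0 and 35.8 in untreated hepatocytes. The groups lay far apart and each varied little (log2 difference -2.14, SE 0.23, adjusted p = 2.52e-05 by limma; 0.207 times the untreated mean). It stood at 0.928, 1.93 and 0.863 scaled TPM in DDC biliary cells, against 7.71, 5.91 and 5.24 in untreated biliary cells, with no overlap (-1.72, SE 0.23, adjusted p = 0.000128). At such levels the added 1 TPM shrinks the log2 difference, and with 5 TPM added it was -0.85, under the bound of 1 (adjusted p = 0.000153): the mean in DDC biliary cells was 0.197 times the untreated mean. The responses of hepatocytes and biliary cells differed by -0.42 (SE 0.32, adjusted p = 0.479 by limma). Summed hepatocyte markers were also lower in DDC than in untreated cells, at 79550 to 161500 against 157700 to 180200 scaled TPM in hepatocytes and 14030 to 32080 against 31450 to 40950 in biliary cells, with an overlap in each case, and their part in the fall was not tested.

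The same gene was lower in biliary and reprogrammed cells than in hepatocytes. In untreated mice the log2 difference of biliary cells from hepatocytes was -2.44 (SE 0.23, adjusted p = 9.26e-07 by limma), and in DDC mice it was -2.02 (SE 0.23, adjusted p = 5.82e-06). Both were also called on TPM as deposited, at -1.25 and -1.23. Reprogrammed cells, with 1.59, 3.85 and 2.85 scaled TPM, lay below all DDC hepatocytes (-1.29, SE 0.23, adjusted p = 0.000563) and below all untreated hepatocytes (-3.42, SE 0.23, adjusted p = 5.03e-08). Slc30a10 was the 1 gene of 6 called between reprogrammed cells and DDC hepatocytes, beside 19.5% of all genes (13.7% higher and 5.77% lower). On TPM as deposited it was still lower in each reprogrammed library than in each DDC hepatocyte library, at 2.21 to 4.08 against 5.10 to 5.81 TPM, but short of a call (-0.64, adjusted p = 0.0143), and with 5 TPM added before the logarithm in place of 1 the log2 difference was -0.74. Against DDC biliary cells the difference was 0.73 (SE 0.23, adjusted p = 0.0465), under the bound of 1, and 0 of 6 genes were called there by limma, beside 3.51% of all genes (2.78% higher and 0.734% lower). At an unadjusted p under 0.05 there were 2 of the 6, Slc30a10 and Slc39a14. The same 2 passed the adjusted p alone, beside 2053 of all 13905 genes.

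The level of Slc30a10 in biliary libraries was close to what their hepatocyte markers showed. As deposited, Slc30a10 in untreated biliary cells was 0.453, 0.378 and 0.358 times that in untreated hepatocytes of the same number, and the median hepatocyte marker was 0.505, 0.406 and 0.385 times. In DDC mice the ratios were 0.241, 0.473 and 0.278 for Slc30a10 and 0.381, 0.431 and 0.223 for the median marker. Mt1 had ratios of 1.001, 1.02 and 0.681 in untreated mice and 0.958, 0.947 and 0.559 in DDC mice, so in each pair it was less reduced in biliary cells than the markers were. Whether Slc30a10 RNA in biliary libraries came from biliary cells or from hepatocyte RNA was not tested.

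**Figure D4:**
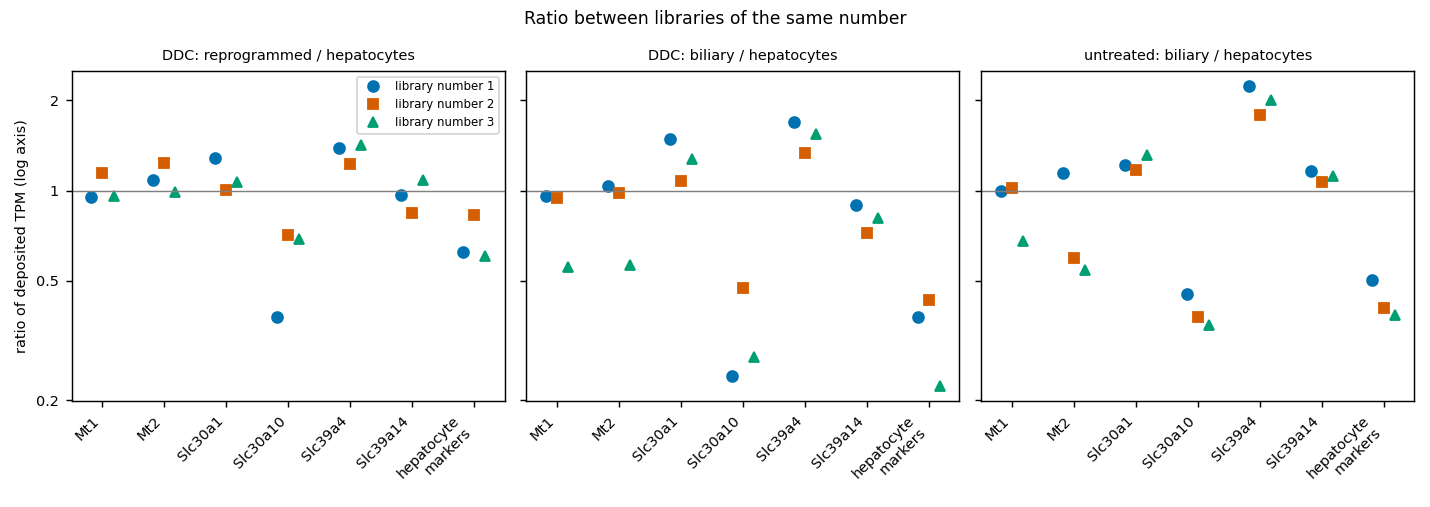
Ratio of deposited TPM between 2 libraries of the same number (log axis) for the 6 genes and the median of 10 hepatocyte markers, for reprogrammed cells over DDC hepatocytes, DDC biliary cells over DDC hepatocytes and untreated biliary cells over untreated hepatocytes. In both biliary panels Slc30a10 (0.241 to 0.473) lies with the markers (0.223 to 0.505), while Mt1 lies higher (0.559 to 1.02).

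Slc39a4, the ZIP4 importer gene, was modestly higher under DDC. It stood at 216.2, 195.9 and 222.1 scaled TPM in DDC hepatocytes, against 101.5, 125.1 and 121.0 in untreated hepatocytes. The groups were well apart, and the log2 difference of 0.87 (SE 0.13, adjusted p = 0.000422 by limma) passed the test but not the bound of 1. On TPM as deposited the difference was 1.13 and was called. It stood at 188.1, 128.2 and 134.9 scaled TPM in DDC biliary cells, against 95.2, 92.4 and 99.2 in untreated biliary cells, also with no overlap (0.63, SE 0.13, adjusted p = 0.00404). Reprogrammed cells had 167.9, 156.6 and 165.8 scaled TPM, all above untreated hepatocytes (0.50, SE 0.13, adjusted p = 0.00555) and all below DDC hepatocytes (-0.37, SE 0.13, adjusted p = 0.037). Against untreated hepatocytes, the difference of reprogrammed cells reached a call at 1.55 on TPM as deposited and 1.10 after quantile normalization. Against DDC hepatocytes it turned to 0.42 on TPM as deposited (adjusted p = 0.0456 by limma) and 0.19 after quantile normalization (adjusted p = 0.279). Between biliary cells and hepatocytes the direction depended on the scale too: biliary cells were lower on scaled TPM (-0.27 in untreated and -0.51 in DDC mice) and higher on TPM as deposited (0.99 and 0.59) and after quantile normalization (0.44 and 0.40).

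Per transcript length, Slc39a4 was the most abundant of the 4 transporters in each group. It averaged 163.4 ± 6.0 scaled TPM in reprogrammed cells, 150.4 ± 32.8 in DDC biliary cells, 211.4 ± 13.7 in DDC hepatocytes, 95.6 ± 3.4 in biliary cells of untreated mice and 115.9 ± 12.6 in their hepatocytes (SD, n = 3 each). On this scale DDC hepatocytes stood highest and untreated biliary cells lowest, and neighbouring groups overlapped only between reprogrammed and DDC biliary cells.

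Slc39a14, the ZIP14 importer gene that interleukin-6 induces in mouse hepatocytes, was not called between DDC and untreated cells. It stood at 76.7, 99.8 and 90.2 scaled TPM in DDC hepatocytes, against 78.1, 106.4 and 86.5 in untreated hepatocytes, and the ranges overlapped nearly in full (log2 difference -0.02, SE 0.15, adjusted p = 0.958 by limma). It stood at 35.3, 35.5 and 28.9 scaled TPM in DDC biliary cells, against 38.0, 46.9 and 39.6 in untreated biliary cells (-0.31, SE 0.15, adjusted p = 0.146). Biliary cells were below hepatocytes on scaled TPM, by -1.10 in untreated mice (SE 0.15, adjusted p = 3.02e-05) and -1.39 in DDC mice (SE 0.15, adjusted p = 4.55e-06). On TPM as deposited the difference turned to 0.16 in untreated mice and was -0.30 in DDC mice, neither of them called. Reprogrammed cells, with 41.6, 54.8 and 51.2 scaled TPM, were below DDC hepatocytes by -0.84 (SE 0.15, adjusted p = 0.000656) and above DDC biliary cells by 0.55 (SE 0.15, adjusted p = 0.0305), both under the bound of 1. These differences were -0.06 on TPM as deposited (adjusted p = 0.737 by limma) and 0.25 (adjusted p = 0.207).

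Between biliary cells and hepatocytes, Slc30a10 and Slc39a14 were the 2 of 6 genes called in untreated and in DDC mice, both lower. Of all genes, 37.2% were called in untreated mice (21.6% higher and 15.6% lower) and 34.6% in DDC mice (20.2% higher and 14.4% lower). Mt1 and Mt2 were lower in untreated biliary cells than in untreated hepatocytes by -1.43 and -1.67 on scaled values, and not called (adjusted p = 0.178 and 0.259 by limma). With the replicate number as a block within treatment, which the pairing of untreated libraries allows, both were called (adjusted p = 0.000442 and 0.000441). On TPM as deposited the differences were -0.17 and -0.46, not called. Without untreated hepatocyte library 2, Slc39a14 was no longer called in untreated mice (-0.98, short of the bound of 1).

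**Figure D5:**
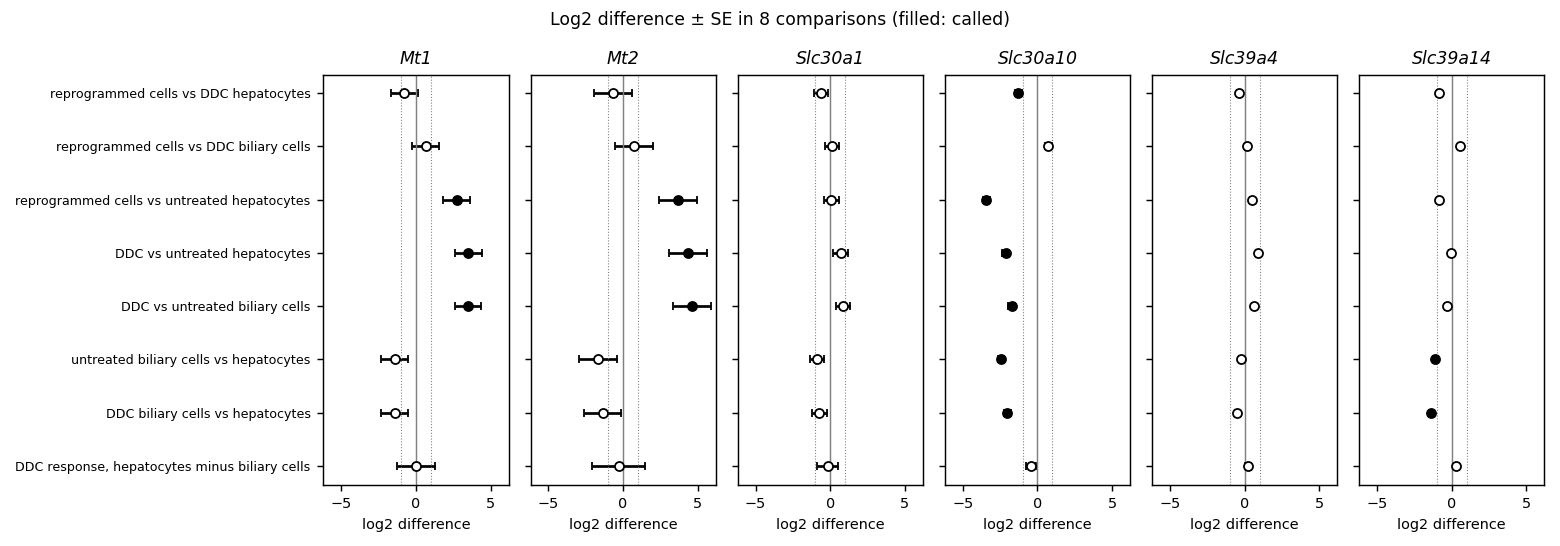
Log2 difference with its SE for the 6 genes in 8 comparisons, filled where called, with dotted lines at a difference of 1 in each direction. Mt1 and Mt2 are called in the 3 comparisons with untreated cells at 2.72 to 4.63, Slc30a10 in 6 comparisons at -3.42 to -1.29, Slc39a14 in the 2 comparisons of biliary cells with hepatocytes, and Slc30a1 and Slc39a4 in none on this scale of scaled TPM.

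The metal sensor gene Mtf1 was expressed at a low level in each group. It averaged 5.59 ± 0.44 scaled TPM in reprogrammed cells, 6.34 ± 0.42 in DDC biliary cells, 5.33 ± 0.53 in DDC hepatocytes, 7.63 ± 0.29 in biliary cells of untreated mice and 7.39 ± 0.26 in their hepatocytes (SD, n = 3 each). It was called in none of the 8 comparisons on scaled values, although DDC hepatocytes were below untreated hepatocytes by -0.41 (SE 0.10, adjusted p = 0.0101 by limma; -0.16 and adjusted p = 0.52 on TPM as deposited). On TPM as deposited it was called higher in biliary cells than in hepatocytes, by 1.15 in untreated and 1.16 in DDC mice. Mt3 and Mt4, the metallothionein genes of brain and of squamous epithelium, had group means of at most 1.27 and 2.02 scaled TPM and were not called.

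Of 8 other ZnT exporter genes 6 were tested, and 0 were called in any of the 8 comparisons. At an unadjusted p under 0.05 there were 2 of them in DDC against untreated hepatocytes (Slc30a4 and Slc30a5) and 1 in DDC against untreated biliary cells (Slc30a4). These also passed the adjusted p and fell short only of the bound of 1. Slc30a4 was higher by 0.86 in hepatocytes (adjusted p = 0.000388 by limma) and 0.85 in biliary cells (adjusted p = 0.000442). Slc30a5 differed by -0.34 in hepatocytes (adjusted p = 0.0186). Slc30a4, named after its values were seen, averaged 13.6 ± 1.8 scaled TPM in DDC biliary cells and 7.07 ± 0.42 in untreated biliary cells (SD, n = 3 each). Of 12 other ZIP importer genes 9 were tested, and limma called 0 between DDC and untreated cells in either cell type. At an unadjusted p under 0.05 there were 5 in hepatocytes and 7 in biliary cells. The share of all genes under that rule is not given, so the counts of either family are not a result about its genes. Under another rule, the adjusted p alone, 3898 of all 13905 genes passed in hepatocytes and 3638 in biliary cells. Slc39a6, a plasma membrane importer, stood higher in reprogrammed cells than among DDC hepatocytes (log2 difference 1.31, adjusted p = 4.53e-05 by limma) and than in untreated hepatocytes (2.04, adjusted p = 3.67e-07). Slc39a8, the importer closest in sequence to ZIP14, was lower on scaled TPM in reprogrammed cells than in untreated hepatocytes (-1.35, adjusted p = 2.02e-05). Between biliary cells and hepatocytes, 4 of the 9 were higher and 2 lower in untreated mice, and 2 were higher and 2 lower in DDC mice, with Slc39a6 and Slc39a10 higher and Slc39a11 lower in both, on scaled TPM. Of all genes tested, 21.6% were higher and 15.6% lower in untreated mice, and 20.2% and 14.4% in DDC mice.

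Genes of copper handling were listed because metallothioneins also bind copper. Of 14 tested, 3 rose and 0 fell in DDC hepatocytes against untreated ones: Cp, the copper ferroxidase ceruloplasmin (1.40, adjusted p = 0.00213 by limma), and the metalloreductase genes Steap4 (1.21) and Steap2 (1.18), beside 6.59% of all genes higher and 4.42% lower. In DDC biliary cells 1 rose and 0 fell, Steap4 (1.53, adjusted p = 0.00293), beside 5.68% higher and 4.74% lower. The median log2 difference of the list was 0.05 in hepatocytes and -0.29 in biliary cells, against 0.01 and -0.02 over all genes tested. Reprogrammed cells had 3 genes higher and 3 lower than DDC hepatocytes on scaled TPM, beside 13.7% of all genes higher and 5.77% lower. Ccs, the copper chaperone of superoxide dismutase, was among the lower ones (-1.18).

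Other known inducers of metallothionein genes were described by their target genes. Of 12 genes of the glucocorticoid receptor list, 1 rose and 4 fell in DDC hepatocytes, and 1 rose and 5 fell in DDC biliary cells. The shares over all genes were 6.59% higher and 4.42% lower in hepatocytes and 5.68% and 4.74% in biliary cells. Lcn2, a protein of the acute phase, rose by 6.12 in hepatocytes and 3.83 in biliary cells on the log2 scale, and Tsc22d3, a glucocorticoid-induced leucine zipper gene, fell by 3.01 and by 3.13. The mean of the list was lowest in number 1 of the DDC libraries in each cell type, at 5.99, 7.13 and 6.47 (mean log2 level, numbers 1, 2 and 3) in reprogrammed cells, 5.77, 6.73 and 5.98 in biliary cells and 6.35, 7.49 and 6.85 in hepatocytes. In untreated cells it was 6.72, 6.73 and 6.84 in biliary cells and 6.71, 6.88 and 6.96 in hepatocytes, with number 3 the highest in both. Its part in the metallothionein levels was not tested. In untreated biliary cells against hepatocytes, 3 genes of the list were higher and 4 lower (21.6% and 15.6% of all genes). Tat (-2.54) and Pck1 (-2.50) were among the lower ones. The summed hepatocyte markers were also lowest in number 1 of the reprogrammed cells and DDC hepatocytes, though not of DDC biliary cells. The part of hepatocyte RNA in the mean of the list was not tested.

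Of 18 genes of the interleukin-6 and STAT3 list, 4 rose and 2 fell in DDC hepatocytes (6.59% and 4.42% of all genes), among them Socs3, the feedback inhibitor (3.38, adjusted p = 0.000792 by limma), Hamp, the iron hormone hepcidin (1.91), Lifr, a cytokine receptor (-3.49), and Saa3, an acute phase protein (-2.38). In DDC biliary cells 1 rose, the receptor gene Osmr (1.69), and 2 fell, Lifr (-2.14) and Saa3 (-2.12), beside 5.68% and 4.74% of all genes. The mean of the list ran with the metallothioneins in part: it was lowest in number 1 in reprogrammed cells (6.195, 6.95 and 6.71) and in DDC hepatocytes (6.87, 7.38 and 7.53), but not in DDC biliary cells (5.89, 6.26 and 5.80). In untreated cells it was highest in number 1, at 5.905, 5.57 and 5.77 in biliary cells and 7.09, 6.997 and 7.02 in hepatocytes. Mt1 and Mt2 were highest there in number 3.

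Of 20 immediate early genes, which respond to stress and to cell isolation, 7 rose and 0 fell in DDC hepatocytes, while 3 rose and 10 fell in DDC biliary cells. Of all genes, 6.59% rose and 4.42% fell in hepatocytes, and 5.68% rose and 4.74% fell in biliary cells. In untreated mice 16 of the 20 were already higher and 0 lower in biliary cells than in hepatocytes (21.6% and 15.6% of all genes). The difference between those responses was called for 12 of the 20 (8.4% of all genes, 4.94% more positive in hepatocytes), all 12 more positive in hepatocytes, among them Atf3 (3.88, adjusted p = 0.000929 by limma) and Klf6 (3.22).

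The genes whose pattern was most like each member's were found by the root mean square gap between centred log2 levels over the 15 libraries. For Mt1 the nearest were Akr1b7 (0.665), Ankrd55 (0.674) and Slc51b (0.737), with Mt2 itself at 0.679, where the spread of Mt1 was 2.08. For Mt2 they were Cyp2b10 (1.10), Ankrd55 (1.10) and Slc51b (1.16), each farther than Mt1 at 0.679. For Slc30a1 they were Omd (0.262), Epop (0.282) and Tesmin (0.316), and for Slc30a10 Il1rap (0.217), Pbld2 (0.248) and Acsl1 (0.259). For Slc39a4 they were Gmnn (0.131), Anxa7 (0.151) and Mcph1 (0.157), and for Slc39a14 Necap1 (0.126), Fam173b (0.133) and Tmbim6 (0.146). Acsl1, a fatty acid activating enzyme of hepatocytes, averaged 82.6 scaled TPM in reprogrammed cells, 44.5 in DDC biliary cells, 204.5 in DDC hepatocytes, 170.9 in biliary cells of untreated mice and 880.0 in their hepatocytes. The 5 groups stood in the same order for Slc30a10.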

How the data were processed

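RNA was measured by RNA sequencing in 15 libraries of sorted cells. The authors deposited gene TPM computed with Salmon for mm10, per the submitters' processing notes. The sources used here do not give the version of Salmon. Libraries were grouped by their titles. Genes with at least 1 TPM in at least 3 libraries were kept. The scale factor of a library was its median ratio, across 11924 genes, to the geometric mean of the 15 libraries. Groups were compared on log2(scaled TPM + 1) with limma 3.58.1 (R 4.3.3). All 5 groups entered 1 fit, which had a trend of variance on mean and 10 residual degrees of freedom, and p-values were adjusted over all 13905 genes by Benjamini-Hochberg. Without a block, the fit treats all 15 libraries as independent, which the spread by number within treatment makes doubtful for Mt1 and Mt2. The fit was tested on simulated data. TPM are not counts, so no test for counts was used. Python 3.11.15 with matplotlib 3.10.9 drew the figures.

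The members, gene lists, markers and tests were chosen with earlier results of these data known. The text names all 6 members and Mtf1, up to 4 called genes of each list in a comparison, those of largest difference, and the 3 genes nearest to each member's pattern. Markers of endothelial, macrophage, stellate, lymphocyte, neutrophil and erythroid cells were also summed. Some listed markers are not reported here and were left out of the sums. The sums in scaled TPM were at most 22.7, 81.3, 71.7, 0.845, 32.6 and 137.0 in any library, and the highest erythroid sums were those of untreated hepatocytes.

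Pairing by number was checked by correlating, across genes, how far each library lay from its group mean. For same-numbered libraries r was 0.150 to 0.236 for untreated biliary cells with hepatocytes, 0.136 to 0.449 for reprogrammed cells with DDC hepatocytes and 0.208 to 0.456 for reprogrammed with DDC biliary cells, and these were taken as paired. Between DDC biliary cells and hepatocytes (0.0436 to 0.319) and between DDC and untreated cells they were not. Yet for DDC biliary cells with hepatocytes each same-numbered r (0.318, 0.319 and 0.0436) exceeded the highest with another number (-0.0645, 0.0304 and 0.00449). Both of these groups were also taken as paired with reprogrammed cells. Alternatives were TPM as deposited, quantile normalization, other pseudocounts and filters, fits of the compared groups alone, a replicate block, the adjusted p alone and leaving out libraries.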

Additional observations from a re-analysis of the deposited data

How the results depend on the processing

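Of 926 differences recomputed under alternatives, 876 stayed called or uncalled, 24 gained a call, 25 lost one and 1 called value turned. Of the 876, 49, none of them called, had the other sign. Of 300 counts, 254 stayed within 1.5 times and 46 did not. The one that turned was Slc39a14 between untreated biliary cells and hepatocytes, at 0.16 on TPM as deposited. The causes were not tested. TPM as deposited gave 0 called members between reprogrammed cells and DDC hepatocytes (4249 genes in all), 5 between reprogrammed cells and untreated hepatocytes, and 1 between biliary cells and hepatocytes in untreated (7820 genes) and in DDC mice (7787 genes). Quantile normalization gave 1 in untreated mice. A pseudocount of 0.1 gave 1 between reprogrammed and DDC biliary cells, and 2330 genes between DDC and untreated hepatocytes. A pseudocount of 5 gave 0 between reprogrammed cells and DDC hepatocytes, and 1482, 298, 2765, 797, 750, 3371, 3023 and 582 genes over the 8 comparisons, in the order reprogrammed cells against DDC hepatocytes, against DDC biliary cells and against untreated hepatocytes, DDC against untreated hepatocytes and biliary cells, biliary cells against hepatocytes in untreated and DDC mice, and the difference of responses. The adjusted p alone gave 6620, 2053, 8802, 3898, 3638, 9298, 9095 and 1780 genes in that order, against 2708, 488, 4596, 1532, 1449, 5172, 4810 and 1168, and 3, 2 and 5 members in the first 3. Only the groups compared in the fit gave 6 genes between reprogrammed and DDC biliary cells. There, leaving out 1 library gave 103 to 832 genes, 103 without DDC biliary library 3, 137 without reprogrammed library 2 and 832 without reprogrammed library 1, and leaving out the 3 DDC libraries of number 1, chosen after seeing the data, gave 914.

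Leaving out 1 library gave 1 to 2 called members between reprogrammed cells and DDC hepatocytes, 1 to 3 between reprogrammed cells and untreated hepatocytes and between DDC and untreated cells of either type, and 1 to 2 between untreated biliary cells and hepatocytes. The replicate block within treatment gave 4 called members between biliary cells and hepatocytes in untreated and in DDC mice. Mt1 and Mt2 were added in both, in DDC mice at -1.43 and -1.37 (adjusted p = 0.000472 and 0.00158 by limma). In DDC mice these numbers were not taken as paired. The block over all samples added Mt1 alone in both (adjusted p = 0.0227 in untreated and 0.023 in DDC mice). Neither replicate block changed another call among the 6 genes. Over the alternatives the adjusted p of Slc30a10 for the difference of responses ran from 0.003 to 0.982, and it was not called. Depth is unknown for TPM, so differences among values near 0, such as Slc30a10 in DDC biliary cells, cannot be given a counting error.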
